A study of Rattus norvegicus with 18 samples.

Results

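The Wnt modulators and R-spondin receptors described here are 10 rat genes, Lgr4, Lgr5, Axin2, Sfrp1, Sfrp2, Sfrp4, Dkk2, Dkk3, Tcf7l2 and Wnt5a, of the 33898 genes in the count table. They were chosen by name with results of these same comparisons already known, so their levels, changes and calls are given as a description, with no p-value. All 10 were found in the table by symbol, and 9 had enough counts to be tested. The exception, Dkk2, had 2 counts in all 18 libraries.

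RNA was sequenced from nucleus pulposus cells, isolated from the soft centre of the discs of Sprague Dawley rats aged 8 weeks and grown in serum-containing medium. The cells received PDS (pyridostatin), Phen-DC3 or Braco-19 for 24 hours. All are ligands of G-quadruplexes, folds that guanine-rich nucleic acid can take up. The titles name PDS controls and Phen-DC3 controls, and a further control group names no compound. This group, called the unnamed controls here, was set against Braco-19 by elimination. Each of the 6 groups had 3 libraries, which the study calls biological repeats, and whether they came from separate animals is not stated. Doses and the vehicle of the controls are not in the labels, so the compounds are not compared at matched doses, and test results measure only the spread between these libraries.

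As background, secreted Wnt ligands bind Frizzled receptors and Lrp co-receptors on the cell surface, which protects β-catenin from a destruction complex built around axin and Apc. Spared β-catenin works with DNA-binding TCF/LEF factors, of which Tcf7l2 is one, and switches on targets that include Axin2, itself a feedback inhibitor. R-spondins bind Lgr4 and Lgr5 and thereby restrain the ubiquitin ligases Rnf43 and Znrf3, which otherwise remove Frizzled receptors. The Sfrp proteins are secreted Frizzled-like proteins that bind Wnts, Dkk2 is a secreted ligand of Lrp co-receptors, and Dkk3 is a divergent family member. Wnt5a is a ligand known mainly for signalling without β-catenin, through receptors such as Ror2.

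The promoters of Tcf7l2 and Axin2 are shown because the compounds bind G-quadruplexes and Axin2 is a standard Wnt target. Both run 5′ to 3′ on the plus strand, from 250 bases before to 50 bases after the start of the gene, in RefSeq's GRCr8 assembly. The Tcf7l2 window is chr1:264791085-264791384, and its capitals mark stretches that, read on the minus strand, hold 4 runs of 3 or more G separated by 1 to 7 bases. The Axin2 window is chr10:94398535-94398834, and its capitals mark CTTTGAT, letters found in many TCF/LEF binding sites.
Tcf7l2: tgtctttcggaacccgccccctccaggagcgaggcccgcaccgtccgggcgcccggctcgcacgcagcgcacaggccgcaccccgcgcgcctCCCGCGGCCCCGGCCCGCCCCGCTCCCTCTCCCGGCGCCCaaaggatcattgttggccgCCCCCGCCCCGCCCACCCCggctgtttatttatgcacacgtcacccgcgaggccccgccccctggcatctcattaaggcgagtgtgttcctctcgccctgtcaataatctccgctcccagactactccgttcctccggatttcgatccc
Axin2: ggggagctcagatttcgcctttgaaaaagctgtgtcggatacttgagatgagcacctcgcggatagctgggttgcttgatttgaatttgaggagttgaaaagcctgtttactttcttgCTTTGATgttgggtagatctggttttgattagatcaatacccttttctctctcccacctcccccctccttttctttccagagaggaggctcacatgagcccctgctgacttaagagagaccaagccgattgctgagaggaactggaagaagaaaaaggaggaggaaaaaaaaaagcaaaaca
Promoters of 5 members were matched, those of Lgr4, Axin2, Sfrp2, Tcf7l2 and Wnt5a. The G-run pattern, searched on both strands, was present in Tcf7l2 alone of these 5, in 2 separate stretches that lie 158 to 119 and 99 to 81 bases before the start. It was present in 16.6% of 33469 promoters and in 25.1% of the 10817 promoters of tested genes. CTTTGAT, also searched on both strands, was found in Axin2 alone of the 5, 132 to 126 bases before the start, and in 3.63% of all promoters. The G and C content was 70.3% for Tcf7l2 and 45.7% for Axin2, beside a median of 61% for the promoters of tested genes. These matches describe letters only, and binding was not measured.

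Library totals ran from 15715121 to 18369443 counts, and 14184 genes were tested in a single edgeR quasi-likelihood fit. A gene was called where its Benjamini-Hochberg adjusted p over all tested genes was below 0.05, and alternatives are other scalings, filters and fits and fits without single libraries. The 6 Braco-19 and unnamed control libraries stood apart from the other 12. Fibronectin (Fn1) took 6.49 to 7.77% of their counts, against 0.636 to 1.32% in the other 12 libraries, and genes longer than 5000 bases took 23.3 to 25.4%, against 7.42 to 10.7%. The log2 fold change also ran with gene length, with a Spearman correlation across genes of -0.443 for Phen-DC3 over its controls, 0.174 for PDS and -0.225 for Braco-19. Between control groups it was -0.496 for PDS controls and -0.474 for Phen-DC3 controls over the unnamed controls. For PDS controls over Phen-DC3 controls it was -0.320. A fit with a term for gene length was one of the alternatives. Among 13 nucleus pulposus markers, Tbxt, Noto, Shh and Krt19 were at 0 in every library and Krt18 had 4 counts in all, whereas Pax1, Foxf1, Cd24, Col2a1 and Krt8 were present. The leukocyte markers Ptprc, Cd163 and Cd3e and the endothelial marker Cdh5 were at 0 throughout, but other markers of these lists were seen. The leukocyte markers Cd68 and Csf1r had 598 and 100 counts in all, and the endothelial marker Tek had 109. Cd68 averaged 2.57 CPM in the unnamed controls, against 1.07 CPM in PDS controls and 1.15 CPM in Phen-DC3 controls. Tek averaged 1.02 CPM in the unnamed controls, against 0.0596 CPM in PDS controls and 0.124 CPM in Phen-DC3 controls. The part of these markers in the member values was not tested.

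Per kilobase of transcript, Sfrp2 was the most abundant member in each of the 6 groups. Its mean was 121 CPM per kilobase with PDS and 105 in PDS controls, 118 with Phen-DC3 and 130 in Phen-DC3 controls, and 95.3 with Braco-19 and 88.8 in the unnamed controls. In PDS controls, it was followed by Dkk3 at 25.6 ± 0.627, Sfrp4 at 16.7 ± 0.782 and Lgr4 at 9.42 ± 1.06 CPM per kilobase (SD, n = 3). Wnt5a at 7.74 ± 0.416 and Lgr5 at 7.21 ± 0.587 CPM per kilobase came next and lay within their spread of each other. Axin2 at 1.73 ± 0.190 and Tcf7l2 at 1.31 ± 0.124 CPM per kilobase were low, and Sfrp1 was lowest of the tested genes at 0.164 ± 0.0484. The order was different in the unnamed controls, where Lgr4 at 17.8 ± 0.203 CPM per kilobase came second and Sfrp4 at 8.89 ± 1.08 came sixth, within the spread of Lgr5 at 9.29 ± 0.575. Dkk2 was at 0 in 17 libraries, and 3 counts over a group of 3 libraries correspond to 0.0552 to 0.0613 CPM, so a level below that could not be seen at this depth.

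**Figure D1:**
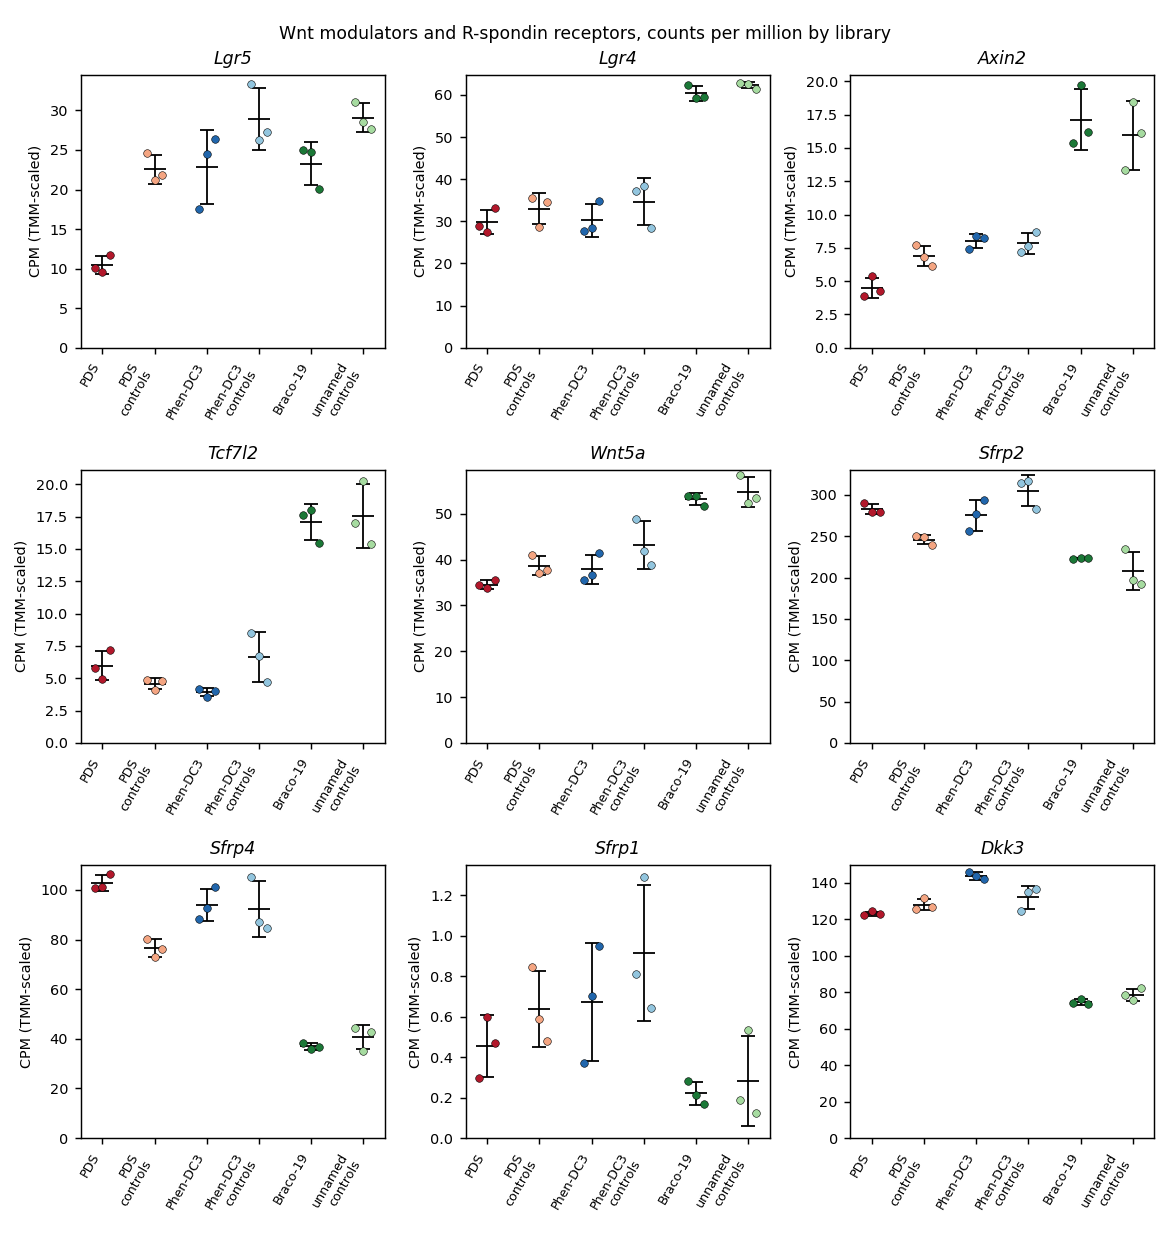
Level of the 9 tested genes in each library, in CPM scaled by TMM factors (y axis, from 0), by group (x axis). Points are libraries, the horizontal mark is the mean of 3 and the bars are the SD; Lgr5 with PDS lies below every other library, while Lgr4, Axin2 and Tcf7l2 are highest in the Braco-19 and unnamed control libraries.

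PDS gave the largest member change among the compounds, in the R-spondin receptor Lgr5 (gene model on chromosome 7, 58448277 to 58587787, minus strand; the labels do not name the build of the table). Lgr5 was at 10.1, 9.56 and 11.7 CPM in the PDS libraries, against 24.7, 21.2 and 21.9 CPM in PDS controls. All 3 PDS libraries lay below all 3 controls, and no other library of the series was as low. The log2 fold change was -1.11 ± 0.14 (SE), a level 53.6% lower, and the gene was called lower at the 0.05 threshold. Of all tested genes, 2.88% changed by at least as much in either direction. Lgr5 kept this call in each of 15 alternative analyses, with values between -1.36 and -1.04. In bulk RNA, fewer cells of a type and less RNA per cell cannot be told apart.

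Its paralog Lgr4 (chromosome 3, 101051955 to 101152119), the more broadly expressed of these receptors, did not show this difference. Lgr4 was at 28.9, 27.5 and 33.1 CPM with PDS, against 35.6, 28.7 and 34.6 CPM in PDS controls, and the groups overlapped. The log2 fold change was -0.14 ± 0.12, with a 95% interval from -0.38 to 0.10, which does not reach the Lgr5 value. The ratio of Lgr5 to Lgr4 per kilobase was 0.392, 0.389 and 0.394 with PDS, against 0.774, 0.825 and 0.707 in PDS controls. The receptor balance in PDS libraries was therefore within 0.389 to 0.394, whereas every PDS control exceeded 0.7.

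Axin2 (chromosome 10, 97212432 to 97239642) is widely read as a transcriptional target of β-catenin. Its level was 3.91, 5.35 and 4.23 CPM with PDS, against 7.68, 6.83 and 6.17 CPM in PDS controls. The groups did not overlap, and Axin2 was called lower with a log2 fold change of -0.62 ± 0.16. This call ended in 5 of 15 alternatives: when PDS control replicate 1 (-0.53) or 2 (-0.62) or PDS replicate 1 (-0.53) or 3 (-0.57) was left out, and when all 9 controls were pooled (-1.18). Tcf7l2 (chromosome 1, 276659542 to 276730514), the TCF factor of the list, was at 5.81, 4.93 and 7.17 CPM with PDS, against 4.84, 4.06 and 4.79 CPM in PDS controls. The 3 PDS libraries were higher, by 0.39 ± 0.19 on the log2 scale, without a call.

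Among the secreted modulators, Sfrp4 (chromosome 17, 47297489 to 47394328) was called higher with PDS. It was at 101, 101 and 106 CPM with PDS, against 80.3, 73.1 and 76.3 CPM in PDS controls, with no overlap and a log2 fold change of 0.42 ± 0.09. The call held in 14 of 15 alternatives and ended with the 9 pooled controls (0.56). Sfrp2 (chromosome 2, 182723854 to 182731764) was at 290, 279 and 280 CPM with PDS, against 250, 249 and 239 CPM in PDS controls. Its groups were also apart, by 0.20 ± 0.07, but it was called only in the fit of the 6 libraries of this comparison (0.19). Dkk3 had a log2 fold change of -0.06 ± 0.06, with 122 to 124 CPM with PDS and 126 to 132 CPM in PDS controls, a difference of small size between groups that did not overlap. Sfrp1 had 0.456 ± 0.153 CPM with PDS and 0.638 ± 0.188 CPM in PDS controls, and at this depth its interval of -1.54 to 0.59 holds changes in either direction.

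The ligand Wnt5a (chromosome 16, 4469468 to 4489860) was at 34.4, 33.7 and 35.5 CPM with PDS, against 41.0, 37.1 and 37.9 CPM in PDS controls. All PDS libraries were lower, by 0.16 on the log2 scale (-0.16 ± 0.09), without a call. In all, 3 of 9 tested members were called with PDS, 1 higher and 2 lower, where 8.09% of all tested genes were called. Nothing is read from that share, since the members were chosen on these contrasts. The median size of the log2 change with PDS was 0.39 over the 9 members and 0.18 over all tested genes, and for the same reason nothing is read from it. With Phen-DC3 it was 0.19 over the members and 0.20 over all tested genes, and with Braco-19 it was 0.10 and 0.17. In the PDS and PDS control libraries the summed level of 5 smooth-muscle markers also shifted. It was 2062 to 2251 CPM with PDS, against 1547 to 1702 CPM in PDS controls. Most of that gap was Tagln, at a mean of 1827 CPM with PDS and 1303 CPM in PDS controls, while Acta2 was at 290 CPM with PDS and 283 CPM in PDS controls, and Cnn1 at 43.2 CPM with PDS and 43.7 CPM in PDS controls. The sum of 5 Schwann cell and neuron markers was 2.83 to 4.45 CPM against 5.42 to 7.31 CPM. The sum of the 13 nucleus pulposus markers was 209 to 215 CPM with PDS, against 215 to 224 CPM in PDS controls. The part of these shifts in the member values was not tested.

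**Figure D2:**
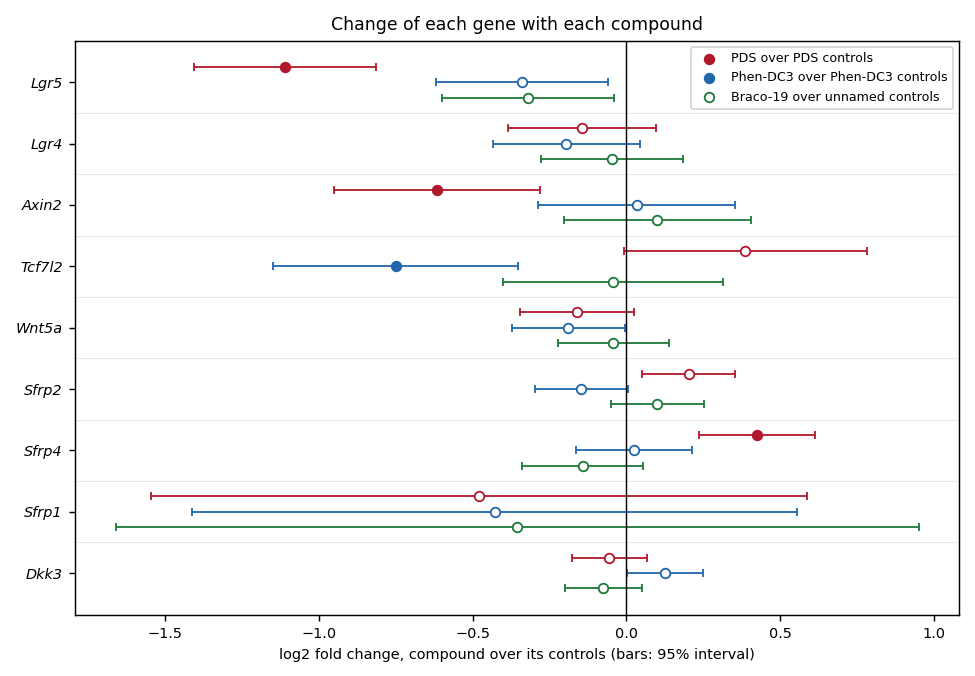
Log2 fold change of the 9 tested genes (x axis) for PDS, Phen-DC3 and Braco-19, each over its own controls. Filled symbols are called at an adjusted p below 0.05, open symbols are not, and bars are 95% intervals; Lgr5 and Axin2 with PDS and Tcf7l2 with Phen-DC3 are lower, and Sfrp4 with PDS is higher.

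With Phen-DC3 the called member was Tcf7l2. It was at 4.20, 3.57 and 4.04 CPM with Phen-DC3, against 8.54, 6.69 and 4.67 CPM in Phen-DC3 controls. The treated libraries were close together and all lay below the controls, of which replicate 3 came nearest to them. The log2 fold change was -0.75 ± 0.19. The call ended in 7 of 15 alternatives, among them the length term (-0.64), the fit of these 6 libraries alone, and the fits without Phen-DC3 control replicate 1 (-0.53) or 2 (-0.73) or without Phen-DC3 replicate 1 (-0.80) or 2 (-0.69). Tcf7l2 was thus 1 of 9 tested members called, where 8.01% of all tested genes were called.

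The R-spondin receptors were not called with Phen-DC3. Lgr5 was at 17.6, 24.5 and 26.4 CPM with Phen-DC3, against 33.3, 26.2 and 27.2 CPM in Phen-DC3 controls, with overlapping groups and a log2 fold change of -0.34 ± 0.13. It was called only without Phen-DC3 replicate 3 (-0.46). Lgr4 was at 27.7, 28.4 and 34.8 CPM with Phen-DC3, against 37.3, 38.5 and 28.3 CPM in Phen-DC3 controls (-0.19 ± 0.11). Control replicate 3 held the lowest of these control values, and without it Lgr4 (-0.32) and Wnt5a (-0.26) were called lower. With it, Wnt5a was at 35.6, 36.6 and 41.5 CPM with Phen-DC3, against 48.9, 41.8 and 38.9 CPM in Phen-DC3 controls (-0.19 ± 0.09).

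Axin2 and Sfrp4 were close to their controls with Phen-DC3. Axin2 averaged 8.01 ± 0.529 CPM with Phen-DC3 and 7.83 ± 0.791 CPM in Phen-DC3 controls, with a 95% interval from -0.29 to 0.35 on the log2 scale. Sfrp4 averaged 94.0 ± 6.53 CPM with Phen-DC3 and 92.4 ± 11.3 CPM in Phen-DC3 controls, with an interval from -0.16 to 0.21. Dkk3 was at 146, 144 and 142 CPM with Phen-DC3, against 125, 135 and 137 CPM in Phen-DC3 controls, all treated libraries above all controls by a log2 difference of 0.13 ± 0.06. It was not called, except with the length term, where its value was 0.34. Sfrp2 had a log2 fold change of -0.15 ± 0.07 and Sfrp1 of -0.43 ± 0.47, both with overlapping groups. The smooth-muscle marker sum, mostly Tagln, was 1696 to 1992 CPM with Phen-DC3, against 1371 to 1625 CPM in Phen-DC3 controls, and its part in these values was not tested.

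With Braco-19, DESeq2 called 0 of 9 members and 359 genes in all. The quasi-likelihood test of edgeR also called 0 of 9, where 0.275% of all tested genes were called. At an unadjusted p below 0.05 there was 1 of 9 members, Lgr5, and 2660 of 14184 genes. Lgr5 was at 25.0, 24.7 and 20.1 CPM with Braco-19, against 31.1, 28.5 and 27.6 CPM in the unnamed controls. Its 3 treated libraries were all lower, by a log2 difference of -0.32 ± 0.13. The other 8 tested members overlapped between the groups, and the share of all tested genes that did so was not computed. Their log2 fold changes lay between -0.35 for Sfrp1 and 0.10 for Sfrp2. Of these, Lgr4 had the interval -0.28 to 0.18, Axin2 -0.20 to 0.40 and Tcf7l2 -0.40 to 0.31.

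Set side by side, Lgr5 was lower than its own controls on average with every compound. The PDS change minus the Phen-DC3 change was -0.77 ± 0.20, and the PDS change minus the Braco-19 change was -0.79 ± 0.19 on the log2 scale, and each difference was called in 20 of 20 alternatives. Phen-DC3 and Braco-19 differed by -0.02 ± 0.19 for this gene, with a 95% interval from -0.41 to 0.38. Axin2 likewise differed for PDS, by -0.65 ± 0.22 from Phen-DC3 and by -0.72 ± 0.22 from Braco-19, but these calls held in 9 of 20 and 12 of 20 alternatives. Sfrp4 differed by 0.40 ± 0.13 from Phen-DC3 and by 0.57 ± 0.13 from Braco-19, with the call kept in 10 of 20 and 20 of 20. The length term lowered the first of these to 0.14 and ended its call, and it brought a call for Dkk3, whose PDS change minus the Phen-DC3 change went to -0.47 with it, against -0.18 without.

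Tcf7l2 had the widest gap, since it lay above its controls with PDS and below them with Phen-DC3. The difference was 1.14 ± 0.27, called in 20 of 20 alternatives. Sfrp2 differed in the same direction by 0.35 ± 0.10, called in 15 of 20. Thus 5 of 9 members were called for PDS against Phen-DC3, where 20.2% of all tested genes were called. For PDS against Braco-19 it was 3 of 9, beside 14.0% of all tested genes. For Phen-DC3 against Braco-19 it was 0 of 9 by DESeq2, beside 53 genes in all. By edgeR it was also 0 of 9, beside 0.0494% of all tested genes. At an unadjusted p below 0.05 there were 3 of 9 members and 1344 of 14184 genes. The Tcf7l2 difference was -0.71 ± 0.26 here, without a call in any of 20 alternatives. Doses are not known, so none of these differences can be tied to the structure of a compound.

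The control groups that name a compound differed from the unnamed controls in most genes. PDS controls against unnamed controls gave 8 of 9 members called, where 73.3% of all tested genes were called. Phen-DC3 controls and unnamed controls gave 8 of 9, where 69.5% of all tested genes were called. Nothing is read from these member counts. Handling of the control groups is not in the labels, so a batch and the group cannot be told apart. The 2 comparisons share the unnamed controls.

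Tcf7l2 showed the largest difference in PDS controls, and in Phen-DC3 controls only Sfrp1 exceeded it in size. Tcf7l2 was at 4.84, 4.06 and 4.79 CPM in PDS controls and at 8.54, 6.69 and 4.67 CPM in Phen-DC3 controls, against 17.0, 20.3 and 15.4 CPM in the unnamed controls. The log2 differences were -1.94 ± 0.19 and -1.41 ± 0.18. Lgr4 was also lower, at 28.7 to 35.6 CPM in PDS controls and 28.3 to 38.5 CPM in Phen-DC3 controls, against 61.5 to 62.8 CPM in the unnamed controls (-0.92 ± 0.11 and -0.85 ± 0.11). Axin2 averaged 6.89 ± 0.756 CPM in PDS controls and 7.83 ± 0.791 CPM in Phen-DC3 controls, against 15.9 ± 2.57 CPM in the unnamed controls (-1.21 ± 0.15 and -1.03 ± 0.15). With the length term, Axin2 kept its direction at -0.62 and -0.54, and Lgr4 at -0.50 and -0.51.

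Sfrp4 and Dkk3 went the other way. Sfrp4 was at 73.1 to 80.3 CPM in PDS controls and 84.7 to 105 CPM in Phen-DC3 controls, against 35.2 to 44.4 CPM in the unnamed controls (0.91 ± 0.09 and 1.18 ± 0.09). Dkk3 was at 126 to 132 CPM in PDS controls and 125 to 137 CPM in Phen-DC3 controls, against 75.6 to 82.1 CPM in the unnamed controls (0.70 ± 0.06 and 0.75 ± 0.06). The length term raised these values, to 1.68 and 1.81 for Sfrp4 and to 1.60 and 1.49 for Dkk3. Sfrp2 was higher by 0.24 ± 0.07 and 0.55 ± 0.07. Sfrp1 was called higher in Phen-DC3 controls (1.66 ± 0.53) but not in PDS controls (1.14 ± 0.55). The first call of this scarce gene ended without Phen-DC3 control replicate 2 (1.36) or unnamed control replicate 3 (1.31). In PDS controls it was called without unnamed control replicate 2 (1.99), with upper-quartile scaling (1.26) and with the length term (1.69).

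Wnt5a was lower in both, by a log2 difference of -0.50 ± 0.09 in PDS controls and -0.34 ± 0.09 in Phen-DC3 controls against the unnamed controls, and its sign turned with the length term, to 0.39 in each. Lgr5 averaged 22.6 ± 1.84 CPM in PDS controls and 28.9 ± 3.86 CPM in Phen-DC3 controls, against 29.1 ± 1.80 CPM in the unnamed controls. Its value was -0.37 ± 0.13 for PDS controls, a call that ended in 5 of 14 alternatives, among them the length term (-0.08) and upper-quartile scaling (-0.25). For Phen-DC3 controls it was -0.01 ± 0.13. In both control groups Lgr4 was lower by more than Lgr5 was. The Lgr5 to Lgr4 ratio per kilobase was 0.769 ± 0.0590 in PDS controls and 0.945 ± 0.163 in Phen-DC3 controls, against 0.522 ± 0.0276 in the unnamed controls.

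**Figure D3:**
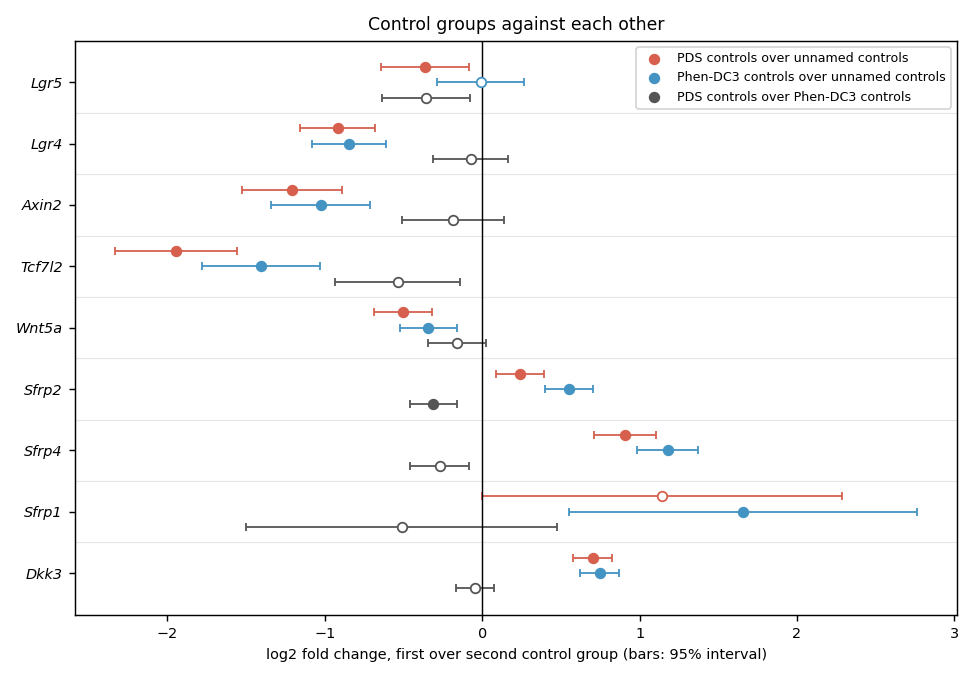
Log2 difference of the 9 tested genes (x axis) between pairs of control groups, the first named over the second. Filled symbols are called at an adjusted p below 0.05 and bars are 95% intervals; Tcf7l2, Axin2 and Lgr4 are lower and Sfrp4 and Dkk3 higher in both compound-named control groups, and the lower Wnt5a values turn to 0.39 with a gene length term.

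PDS controls and Phen-DC3 controls were closer, with 1 of 9 members called, where 6.09% of all tested genes were called. The called member was Sfrp2, at 250, 249 and 239 CPM in PDS controls, against 315, 316 and 283 CPM in Phen-DC3 controls (-0.31 ± 0.07). The groups did not overlap, and the call ended in 5 of 14 alternatives. Lgr5 (-0.36 ± 0.13) and Sfrp4 (-0.27 ± 0.09) were also below in all PDS controls, without a call. The markers shifted with these groups as well. The smooth-muscle sum, mostly Tagln, was 1547 to 1702 CPM in PDS controls and 1371 to 1625 CPM in Phen-DC3 controls, against 445 to 657 CPM in the unnamed controls. Acta2 and Cnn1 went the same way, but Myh11 and Des did not. Myh11 averaged 6.38 CPM in PDS controls and 8.51 CPM in Phen-DC3 controls, against 9.07 CPM in the unnamed controls. Des averaged 3.29 CPM in PDS controls and 3.00 CPM in Phen-DC3 controls, against 3.33 CPM in the unnamed controls. The sum of 6 annulus and tendon markers, mostly Col1a1, was 1246 to 1666 CPM in PDS controls and 1481 to 1636 CPM in Phen-DC3 controls, against 4377 to 5518 CPM in the unnamed controls. Scx, another marker of that list, went the other way, at a mean of 108 CPM in PDS controls and 83.5 CPM in Phen-DC3 controls, against 47.4 CPM in the unnamed controls. Their part in the member values was not tested.

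The rest of the pathway was read from a list of 89 further Wnt genes, of which 87 were in the table by symbol (not Znrf3 and Axin1) and 60 entries were tested. These are 59 symbols, because Tnks2 stands under 2 gene identifiers. This list too was chosen with earlier results of these data known, so its shares and adjusted p are given as a description of these libraries. With PDS, 7 of 60 were called, 4 higher and 3 lower, which is 11.7% beside 8.09% of all tested genes. Rspo1, an R-spondin ligand of Lgr4 and Lgr5, fell with PDS. It was at 41.6, 39.0 and 38.2 CPM with PDS, against 73.2, 70.2 and 74.4 CPM in PDS controls, with a log2 fold change of -0.87 ± 0.12 (adjusted p = 0.000127). Its call held in 14 of 15 alternatives and ended with the 9 pooled controls (-0.41). Rspo1 was at 82.3, 79.0 and 65.3 CPM with Phen-DC3, against 52.7, 59.5 and 71.4 CPM in Phen-DC3 controls, and the PDS change differed from the Phen-DC3 change by -1.18 ± 0.17 (adjusted p = 0.000504).

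The other tested genes of this branch were not called with PDS. Rspo3 was at 60.5 ± 1.69 CPM with PDS and 55.3 ± 3.67 CPM in PDS controls (0.13 ± 0.11, adjusted p = 0.482). Rnf43, the ligase that R-spondin and Lgr proteins restrain, was at 1.70 ± 0.229 CPM with PDS and 2.61 ± 0.139 CPM in PDS controls, with libraries apart but no call (-0.61 ± 0.28, adjusted p = 0.185). Lgr6, the third receptor of the family, was at 1.21 ± 0.0477 CPM with PDS and 1.61 ± 0.139 CPM in PDS controls (-0.42 ± 0.33, adjusted p = 0.469). Of 4 tested genes in this branch, 1 was called, beside 8.09% of all tested genes.

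**Figure D4:**
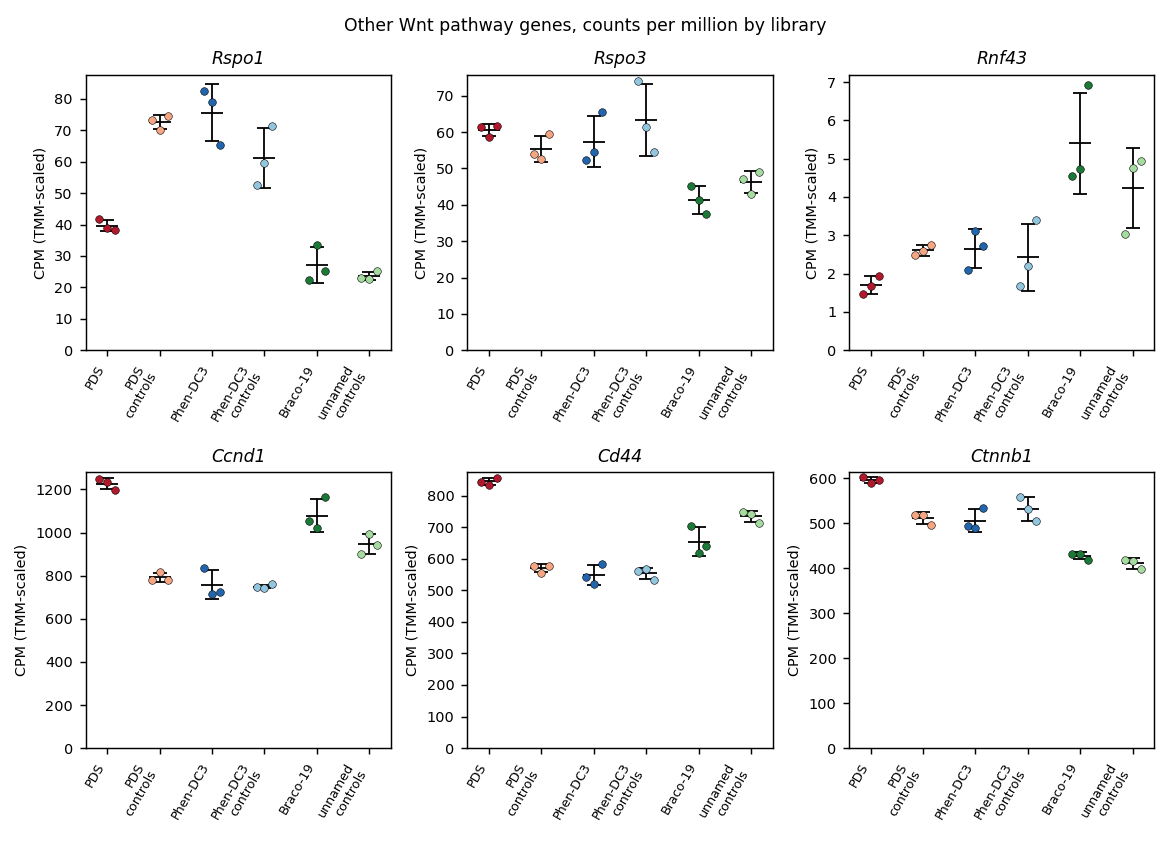
Level of 6 other Wnt pathway genes in each library, in TMM-scaled CPM (y axis, from 0), by group (x axis), with mean and SD of 3 libraries. Rspo1 is lower, and Ccnd1, Cd44 and Ctnnb1 are higher, in all PDS libraries than in all PDS controls, while Rspo3 overlaps.

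Not all genes that are commonly listed as β-catenin targets went the way of Axin2 with PDS. Ccnd1, which encodes cyclin D1 and drives entry into the cell cycle, was at 1227 ± 24.7 CPM with PDS and 792 ± 20.1 CPM in PDS controls (0.63 ± 0.07, adjusted p = 5.52e-06). Cd44, a receptor for hyaluronan, was at 845 ± 11.2 CPM with PDS and 569 ± 12.6 CPM in PDS controls (0.57 ± 0.06, adjusted p = 7.05e-06). Of 6 tested genes in this target list, 2 were called higher and 0 lower, beside 8.09% of all tested genes called. A list this small gives no share to read. Myc was at 23.1 ± 0.973 CPM with PDS and 18.8 ± 0.148 CPM in PDS controls without a call (0.30 ± 0.10, adjusted p = 0.0614), and the feedback gene Nkd1 was near its controls (-0.01 ± 0.38, adjusted p = 0.996).

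Among receptors, Ptk7, a co-receptor of planar polarity signalling, fell with PDS by 0.53 on the log2 scale (-0.53 ± 0.07, adjusted p = 8.42e-05), and so did Fzd2 (-0.39 ± 0.11, adjusted p = 0.0391). Lrp6 averaged 68.6 CPM both with PDS and in PDS controls (adjusted p = 0.996). Of 14 tested receptors and co-receptors, 2 were called lower and 0 higher, beside 8.09% of all tested genes called. Ctnnb1, which encodes β-catenin, rose to 597 ± 6.62 CPM with PDS, against 512 ± 12.7 CPM in PDS controls (0.22 ± 0.06, adjusted p = 0.0202), and its call ended in 8 of 15 alternatives. The ligand Wnt5b rose to 4.19 ± 0.355 CPM, against 2.29 ± 0.414 CPM in PDS controls (0.87 ± 0.24, adjusted p = 0.0257), a call that ended in 6 of 15. Of 3 tested genes among the other secreted inhibitors, 0 were called, beside 8.09% of all tested genes. Frzb, a further Sfrp family member, was at -0.43 ± 0.15 (adjusted p = 0.0792). Lef1 and Dkk1 had too few counts to be tested.

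With Phen-DC3, 4 of the 60 pathway entries were called, 6.67% beside 8.01% of all tested genes, and all 4 were lower. Apc, the scaffold of the destruction complex, was at 13.0 ± 2.70 CPM with Phen-DC3 and 22.0 ± 5.12 CPM in Phen-DC3 controls (-0.76 ± 0.18, adjusted p = 0.0214). Tcf7l1, a TCF factor like Tcf7l2, was at 8.74 ± 0.477 CPM with Phen-DC3 and 13.1 ± 2.22 CPM in Phen-DC3 controls (-0.58 ± 0.14, adjusted p = 0.0217). Lrp6 (-0.30 ± 0.07, adjusted p = 0.0220) and Ror1 (-0.59 ± 0.18, adjusted p = 0.0459) were the others. All 4 calls ended with the length term, where Lrp6 was at -0.039 and Apc at -0.33, and also without replicate 1 or 2 of either group. Ccnd1 (adjusted p = 0.897), Cd44 (adjusted p = 0.931) and Ctnnb1 (adjusted p = 0.436) were not called.

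With Braco-19, 0 of 60 pathway entries were called by edgeR's quasi-likelihood test and 1 by DESeq2, beside 0.275% of all tested genes by edgeR. At an unadjusted p below 0.05 there were 10 of 60 entries and 2660 of 14184 genes. Rspo1 averaged 27.1 CPM with Braco-19 and 23.7 CPM in the unnamed controls (0.19 ± 0.13, adjusted p = 0.422). Its PDS change differed from this by -1.07 ± 0.18 (adjusted p = 0.0011). Between control groups, 41 of 60 entries were called for PDS controls against unnamed controls, 13 higher and 28 lower, and 38 for Phen-DC3 controls against unnamed controls, 14 higher and 24 lower. Both shares, 68.3% and 63.3%, lie below those of all tested genes. Apc had the largest of the differences named here, at -3.32 ± 0.17 in PDS controls and -2.70 ± 0.17 in Phen-DC3 controls (adjusted p = 1.47e-11 and 1.91e-10). With the length term Apc was at -1.47 in PDS controls and -1.16 in Phen-DC3 controls, and it kept its call. Rspo1 was higher by 1.61 ± 0.13 in PDS controls and 1.37 ± 0.13 in Phen-DC3 controls (adjusted p = 5.39e-10 and 8.54e-09).

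**Figure D5:**
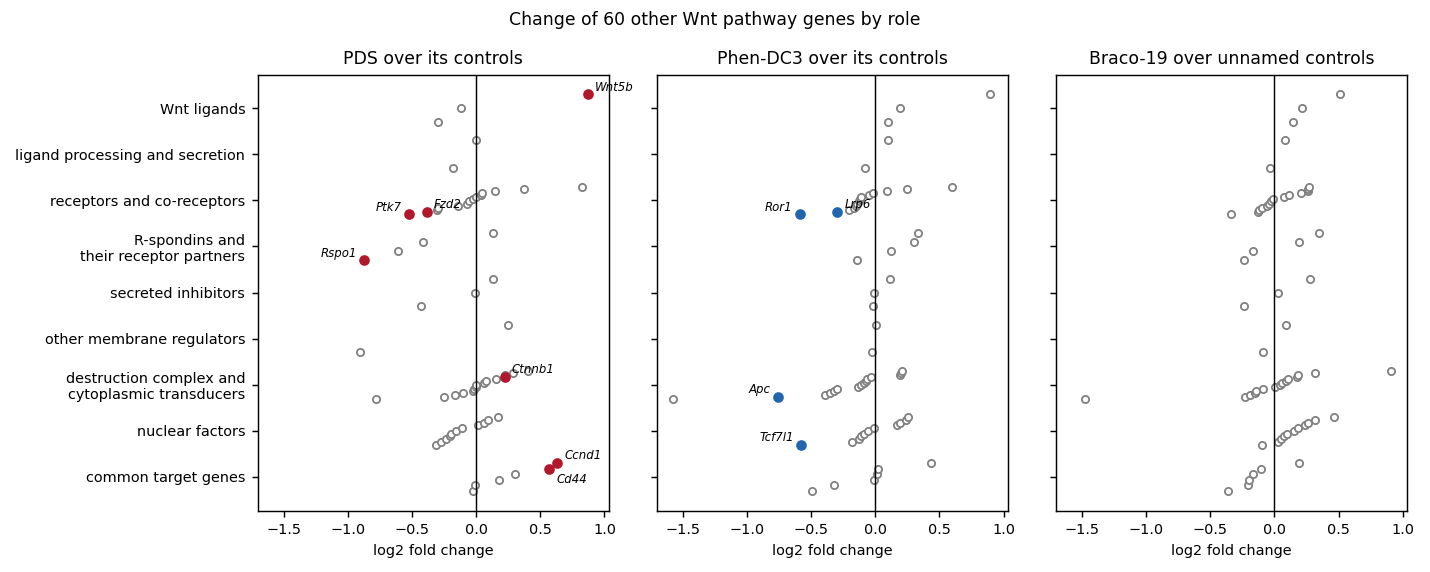
Log2 fold change (x axis) of 60 other Wnt pathway entries by role (y axis) for PDS, Phen-DC3 and Braco-19, each over its own controls. Filled, labelled points are called at an adjusted p below 0.05 over all tested genes, 7 with PDS, 4 with Phen-DC3 and 0 with Braco-19; the vertical offset within a role only separates the points.

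The genes whose pattern over the 18 libraries was most like each member were found by Pearson correlation of log2 CPM, as a description. All points share the gap between the Braco-19 and unnamed control libraries and the other 12, which shapes these values. For Lgr5, the member least marked by that gap, they were Thbs2 and Ptgfr (both 0.96) and Itga11 (0.94). By Spearman correlation they were Tgfb2 (0.93), Slc39a8 (0.92) and Ptgfr (0.91). For Lgr4 they were Tasor2, Ankle2 and Pbrm1, and for Axin2 they included Mtss2 and Npr2. Tcf7l2 ran with Rbms1, Zfp275 and Rnf111, Wnt5a with Klf3, Steap2 and Dlc1, and Dkk3 with Ctsh, Hp and Dhrs7. Sfrp4 ran with Tlr2, Ufd1 and Yipf5, Sfrp2 with Gja1, Lrrc49 and Bnip3l, and Sfrp1 with Ghr, C1r and Tmeff2. None of these genes is itself a member.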

How the data were processed

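Total RNA of 18 libraries was sequenced. The authors deposited raw read counts per gene, whole numbers with no normalisation, in a single table with gene models and lengths. The submitters' processing notes name CASAVA, HISAT2 and featureCounts 1.5.0-p3, and no source here states the genome build, annotation or strandedness. Unstranded counting could mix reads of overlapping genes.

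The tests used edgeR 4.0.16 (limma 3.58.1) under R 4.3.3. filterByExpr by group kept 14184 genes, TMM factors scaled the libraries, and a robust quasi-likelihood model with 1 mean per group was fitted to all 18 libraries, with 12 residual degrees of freedom. Contrasts were two-sided, with Benjamini-Hochberg adjustment over all tested genes of a comparison and a threshold of 0.05. SE comes from the F statistic, SD from 3 libraries. CPM per kilobase divides by the deposited gene length. Intervals cover the spread between libraries, and floors cover counting error only, since PCR copies were not told apart. DESeq2 1.42.0 was an alternative, beside other scalings, filters, a replicate block, a gene length term, smaller fits, pooled controls and leaving out each library.

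The members, the pathway list and the marker lists were chosen with earlier results of these data known. Besides the members, the text names up to 6 called pathway genes of smallest p per comparison, a preset group (Ctnnb1, Lrp6, Lef1, Ccnd1, Myc, Nkd1, Znrf3, Rnf43, Dkk1, Frzb, Wnt5b, Rspo3), and the 3 genes of most similar pattern, of which 1 is not reported here. Values of Lgr6 and of a seventh called gene with PDS, Fzd2, were added after they were seen, as were those of Rspo1 outside PDS. Replicates of a group differed by more than counting noise, so none was merged.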

Additional observations from a re-analysis of the deposited data

Results flagged for a closer look

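For 5 members the change with PDS differed from that with Phen-DC3 when the difference of the 2 changes was itself estimated in the fit, and for 3 of these it also differed from that with Braco-19. The PDS change minus the Phen-DC3 change was -0.77 for Lgr5, -0.65 for Axin2, 0.35 for Sfrp2, 0.40 for Sfrp4 and 1.14 for Tcf7l2 on the log2 scale. The PDS change minus the Braco-19 change was -0.79 for Lgr5, -0.72 for Axin2 and 0.57 for Sfrp4. The 5 and 3 called of 9 tested members stand beside 20.2% and 14.0% of all tested genes, and with no count filter 2 of the 5 were called. The Sfrp4 difference from Phen-DC3 was called in 10 of 20 alternatives and was 0.14, without a call, with the gene length term. The members were chosen with these contrasts known, so the calls describe the libraries at hand. The Tcf7l2 gap with Phen-DC3 adds 2 changes of opposite sign, of which 1 was called by itself. No group has 4 or more libraries, so no single library was tested as an outlier.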

How the results depend on the processing

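For PDS over its controls, 1148 genes, 3 members and 7 pathway entries were called; a fit of these 6 libraries alone called 2053 genes and 14 pathway entries, and the 9 pooled controls gave 102 genes, 1 member and 2 pathway entries. For Phen-DC3, with 1136 genes, 1 member and 4 pathway entries, DESeq2 called 2106 genes and 8 pathway entries, the gene length term 47 genes and 0 pathway entries, the 6 libraries alone 1 gene, 0 members and 0 pathway entries, and the pooled controls 0 of each. For Braco-19, with 39 genes and 0 pathway entries, DESeq2 called 359 and 1, the 6 libraries alone 781 and 2, and the pooled controls 0 genes. For PDS controls over Phen-DC3 controls, with 864 genes, 1 member and 2 pathway entries, DESeq2 called 1599 genes, the length term 468 genes and 0 pathway entries, the 6 libraries alone 3 genes, 0 members and 0 pathway entries, and the fit with no count filter 1 pathway entry. For the PDS change minus the Phen-DC3 change, with 2862 genes and 5 members, the length term left 1888 genes and the fit with no count filter 2 members. For the PDS change minus the Braco-19 change, with 1990 genes and 9 pathway entries, the 12 libraries alone gave 3239 and 15. For the Phen-DC3 change minus the Braco-19 change, with 7 genes, relative log expression factors gave 4, DESeq2 53, and the length term and the 12 libraries alone 0. The cause of these moves was not tested, except that the smaller fits hold fewer libraries and the pooled controls mix groups that differ.

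Deviations of same-numbered libraries correlated at -0.036, 0.064 and 0.00063 for PDS, at -0.116, -0.033 and -0.251 for Phen-DC3 and at 0.058, 0.072 and 0.0088 for Braco-19. Differently numbered ones ran from -0.065 to 0.065 for PDS, from -0.070 to 0.186 for Phen-DC3 and from -0.071 to 0.0088 for Braco-19. Deviations from a mean of 3 libraries depend on each other, so these values cannot settle whether replicate numbers pair the libraries. With the replicate number as a block, calls numbered 1029 for PDS, 734 for Phen-DC3, 30 for Braco-19, 593 for PDS controls over Phen-DC3 controls (with 1 pathway entry) and 2 for the Phen-DC3 change minus the Braco-19 change, and the counts of members called were the same as without it in every comparison.

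Leaving out 1 library at a time gave 563 to 867 genes, 2 to 3 members and 4 to 5 pathway entries for PDS, with the fewest genes without PDS replicate 3. It gave 0 to 3315 genes, 0 to 3 members and 0 to 13 pathway entries for Phen-DC3, with the most without Phen-DC3 control replicate 3 and 0 genes without Phen-DC3 replicate 1. It gave 1 to 153 genes and 0 members and 0 pathway entries for Braco-19. For PDS controls over unnamed controls the ranges were 9973 to 10094 genes, 7 to 9 members and 37 to 40 pathway entries, and for Phen-DC3 controls over unnamed controls 9266 to 9702, 7 to 8 and 35 to 38. For PDS controls over Phen-DC3 controls they were 0 to 2740, 0 to 3 and 0 to 10, with the highest without Phen-DC3 control replicate 3. For the differences between compounds they were 1447 to 4218, 2 to 5 and 8 to 14 (PDS minus Phen-DC3), 896 to 2353, 2 to 3 and 6 to 11 (PDS minus Braco-19), and 0 to 15 genes with 0 members and 0 pathway entries (Phen-DC3 minus Braco-19).

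The length term turned the sign of 5 called single-gene values: Wnt5a to 0.39 in PDS controls and 0.39 in Phen-DC3 controls over unnamed controls, Ccnd1 to 0.30 and 0.11 in the same comparisons, and Lrp6 to -0.045 for the PDS change minus the Phen-DC3 change. Upper-quartile scaling moved the median log2 difference of all genes to 0.09 for PDS controls and 0.11 for Phen-DC3 controls over unnamed controls, against -0.02 and 0.00 with TMM, which bears on changes of that size. Of the other single-gene values under an alternative, 2878 stayed on the same side of the threshold, 159 lost the call, 17 gained it, and 34 without a call turned sign by more than their SE. Some of the 2878 were uncalled values near 0 that turned sign by less. Depth limits Sfrp1 and Dkk2 most, and 3 libraries a group limit every error given.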
